A study of Mus musculus with 2 samples.

Results

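Sprr1a, Lgals7, Krt6a, Fam25c, Fabp5, Mia, Fxyd3, Tm4sf1 and S100a6 are 9 of the 27998 genes in a single-cell count table of mouse mammary transplants. They had been picked for their levels across keratin classes and between the 2 libraries of the same table, so the levels below are a description and carry no test. The study asked what the FGF receptor gene Fgfr2 does in mammary basal cells while a gland regenerates from mixed epithelial cells. Each library came from basal and luminal cells transplanted into the cleared mammary fat pads of female nude recipients, 3 weeks old, and taken 5 days after surgery. After dissection the cells were purified by flow sorting and run on the 10x Genomics droplet platform, 1 library per group. In the Ctrl library (genotype WT in the labels) the donor basal cells were Fgfr2+/+. In the Fgfr2 KO library they were Fgfr2Δ/Δ, made from Fgfr2 fl/fl cells. The basal cells of both groups had been given adenovirus Cre-GFP and carried the R26R mT/mG reporter. The luminal partner cells were wild type in both groups and had not met Cre, so the deletion concerns only the donor basal cells. With 1 library a group, the Fgfr2 genotype and everything else that differed between the libraries cannot be told apart.

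The mammary duct is a bilayer of contractile basal cells around luminal cells that face the lumen. Basal cells carry keratins 5 and 14 and luminal cells keratins 8 and 18. Stratified epithelia such as epidermis use a further programme in which cells switch keratins, load small proline-rich proteins and S100 proteins into a cornified envelope, and fill with galectin-7. Parts of it, keratin 6 above all, are known to come on in healing skin wounds and in cultured keratinocytes. Among the 9 genes, Sprr1a encodes a cornified envelope precursor and Krt6a a wound-induced keratin. Lgals7 encodes galectin-7, a lectin of stratified epithelia, and Fabp5 the epidermal fatty acid-binding protein, which macrophages also make. S100a6 is a calcium-binding EF-hand protein. Tm4sf1 is a multi-span membrane protein found on motile epithelial and endothelial cells. Fxyd3 is a single-span partner of the sodium pump, and Mia a small secreted protein first described in melanoma and cartilage. No role is given here for Fam25c.

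The 9 genes lie on 4 chromosomes of GRCm38 by the GENCODE annotation, and all are annotated as protein coding. Chromosome 3 holds 4 of them: Fabp5 at chr3:10012548-10016607, Tm4sf1 at chr3:57285611-57301988, S100a6 at chr3:90612882-90624181 and Sprr1a at chr3:92483952-92485895. Chromosome 7 holds Mia at chr7:27179742-27181157, Lgals7 at chr7:28863853-28866284 and Fxyd3 at chr7:31068172-31076704. Fam25c lies at chr14:34351881-34355433 and Krt6a at chr15:101689910-101694307. RefSeq promoter windows of the same genome build were matched for 7 of the 9 genes, all but Krt6a and Fabp5. The stretches upstream of the first exon are shown for Sprr1a and Fam25c, the pair highest in luminal cells relative to basal cells, and for Mia and Fxyd3, which were higher in basal cells and followed each other from cell to cell. They run 5′ to 3′ along the gene, and capitals mark matches to the AP-1 motif, searched as TGANTCA on both strands, and to the TATA box, searched likewise as TATAAA.
Sprr1a, chr3:92485896-92486131, minus strand: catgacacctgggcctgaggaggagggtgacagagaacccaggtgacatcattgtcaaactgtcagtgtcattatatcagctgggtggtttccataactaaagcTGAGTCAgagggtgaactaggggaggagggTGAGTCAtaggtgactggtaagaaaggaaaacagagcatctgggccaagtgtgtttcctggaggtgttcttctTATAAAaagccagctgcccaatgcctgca
Fam25c, chr14:34355434-34355643, minus strand: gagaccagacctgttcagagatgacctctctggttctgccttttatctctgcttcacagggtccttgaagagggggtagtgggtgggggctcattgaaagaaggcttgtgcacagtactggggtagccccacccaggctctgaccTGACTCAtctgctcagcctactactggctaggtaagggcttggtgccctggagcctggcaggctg
Mia, chr7:27181158-27181399, minus strand: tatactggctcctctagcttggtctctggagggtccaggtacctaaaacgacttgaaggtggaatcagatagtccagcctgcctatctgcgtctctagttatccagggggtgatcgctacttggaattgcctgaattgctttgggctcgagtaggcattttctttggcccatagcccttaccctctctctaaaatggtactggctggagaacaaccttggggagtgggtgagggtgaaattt
Fxyd3, chr7:31076705-31076947, minus strand: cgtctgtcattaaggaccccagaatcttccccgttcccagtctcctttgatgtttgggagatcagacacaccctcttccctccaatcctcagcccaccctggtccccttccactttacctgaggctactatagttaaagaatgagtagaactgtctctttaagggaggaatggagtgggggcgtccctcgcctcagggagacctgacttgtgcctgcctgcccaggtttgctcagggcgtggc

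Sprr1a held the AP-1 letters at -146 to -140 and at -116 to -110, counted from the RefSeq start, and the TATA box letters at -43 to -38. Fam25c held the AP-1 letters once, at -105 to -99, and the TATA box letters at -29 to -24, inside the annotated first exon and so outside the stretch shown. Lgals7 had 1 match to GGGCGG, the GC box, at -197 to -192. None of the 3 motifs was found in the 250 bases before the start of Mia, Fxyd3, Tm4sf1 or S100a6. Of all 32851 promoters in the set, searched on both strands, 6.75% held the AP-1 letters, 12.4% the TATA box letters and 32.7% the GC box. A match describes letters in the window and is no evidence of binding.

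The table held 268 Ctrl and 86 Fgfr2 KO cells, and the libraries shared 0 barcodes. Cells with at least 1 UMI of Ptprc, the pan-leukocyte gene, were set aside (73 Ctrl and 23 Fgfr2 KO). Of the 258 others, 238 had a keratin class, that is, more UMIs of Krt14 plus Krt5 than of Krt8 plus Krt18 (basal) or the reverse (luminal). There were 68 basal and 117 luminal cells in Ctrl, with medians of 15579 and 20160 UMIs per cell. Fgfr2 KO had 22 and 31, with medians of 16372 and 15029 UMIs. A luminal share of keratin UMIs between 40% and 60%, close to the dividing line, was seen in 13 of 185 Ctrl and 2 of 53 Fgfr2 KO cells.

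The classes were checked against markers without the 4 keratins that define them, since those are high by the rule itself. In Ctrl the remaining 9 basal markers had a median of 2815 UMIs per 1000000 (CPM) per cell in basal and 132 in luminal cells, and the remaining 15 luminal markers had 3383 in luminal and 1239 in basal cells. In Fgfr2 KO the basal markers stood at 3917 against 118 and the luminal markers at 2686 against 533. The classes also held cells with more immune and fibroblast than keratin UMIs: 6 of 68 basal and 26 of 117 luminal cells in Ctrl, and 4 of 22 and 8 of 31 in Fgfr2 KO. The 7 fibroblast markers summed to 1716 CPM in basal and 1863 CPM in luminal cells of Ctrl, against 748 and 660 CPM in Fgfr2 KO. Postn, periostin, made up 227 of the 239 such UMIs in Fgfr2 KO basal cells and was higher there than in Ctrl, at 711 against 582 CPM (log2 0.29, 0.07 to 0.50). The other 6 fibroblast markers summed to 1134 CPM in basal and 1769.6 CPM in luminal cells of Ctrl, against 37.6 and 613 CPM in Fgfr2 KO. Immune markers summed to 884 and 1347 CPM in Ctrl and to 923 and 1867 CPM in Fgfr2 KO. Fgfr2 itself stood at 32.4 CPM (42 UMIs) in Ctrl basal cells and at 21.9 CPM (7 UMIs) in Fgfr2 KO basal cells. A 3′ tag may lie outside the deleted part, so this checks no label.

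The squamous name of the set was set against genes that define terminal keratinocytes. Over the 5049345 UMIs of the 238 classed cells, Ivl (involucrin) and Flg (filaggrin) were listed at 0 UMIs each, which allows up to 0.594 CPM. Lor (loricrin) had 9 UMIs, Krt1 had 3 and Krt10 had 128. Of 42 cornified envelope and late keratinocyte genes in the table, 21 were at 0 UMIs in classed Ctrl cells. The set is therefore called by its gene names here and not as a squamous programme.

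Sprr1a was the most luminal of the 9 genes in Ctrl. CPM are UMIs of a gene per 1000000 UMIs of the group, with exact Poisson 95% intervals, and ratios carry exact 95% intervals too; both cover counting error only. Sprr1a stood at 725 CPM in luminal cells (694 to 758) and 53.3 CPM in basal cells (41.4 to 67.4), 13.6-fold apart (log2 basal over luminal -3.77, interval -4.14 to -3.42). It was a gene of few cells: the top 12 luminal cells held 77.3% of its luminal UMIs. The highest cell reached 121 UMIs per 10000, against a luminal median of 0.547. In basal cells 1 cell held 49.3% of the 69 UMIs, and 35 of the 69 lay in the 6 cells rich in immune and fibroblast transcripts. Without those 6 cells the basal level was 28.1 CPM. With every cell thinned to 5000 UMIs, Sprr1a was seen in 45 of 113 luminal cells (39.8%), 8 of 66 basal cells (12.1%) and 11 of 68 Ptprc-positive cells (16.2%). Its basal share was thus no higher than that of Ptprc-positive cells, whose median depth was 12228 UMIs. Of those 73 cells 5 had at least 10 UMIs of each keratin set, so they are no background free of epithelial transcripts. Before thinning the shares were 70.9%, 35.3% and 32.9%.

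In Fgfr2 KO the class difference of Sprr1a had the same direction. Luminal cells held 198 UMIs (321 CPM) and basal cells 1 UMI (3.13 CPM), a log2 ratio of -6.68 with an interval from -11.99 to -4.18. The 198 UMIs lay in 7 of 31 cells, and 1 of the 7 held 38.4% of them.

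Fam25c followed Sprr1a in its class pattern. It stood at 378 CPM in luminal cells (356 to 401) and 33.2 CPM in basal cells (24.0 to 44.7) of Ctrl, a log2 ratio of -3.51 (-3.98 to -3.07). After thinning it was seen in 41 of 113 luminal cells (36.3%), 6 of 66 basal cells (9.09%) and 0 of 68 Ptprc-positive cells. Fgfr2 KO luminal cells held 211 UMIs (342 CPM) and basal cells 1 UMI, a log2 ratio of -6.77 (-12.08 to -4.28).

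Krt6a, the wound keratin, was low in both classes. It stood at 42.6 CPM in luminal and 23.2 CPM in basal cells of Ctrl, a log2 ratio of -0.88 (-1.51 to -0.29), and 1 basal cell held 60% of its 30 basal UMIs. Without the top cell of each class the ratio was -1.88. Thinned shares were 15.9% of luminal, 6.06% of basal and 2.94% of Ptprc-positive cells. In Fgfr2 KO it had 21 luminal UMIs and 1 basal UMI, a log2 ratio of -3.44 (-8.81 to -0.81). The near-identical paralogue Krt6b was listed at 0 UMIs, and how reads common to the pair were counted was not tested.

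S100a6 was detected in nearly every cell and differed in amount. Of the Ctrl cells, 68 of 68 basal and 116 of 117 luminal cells had at least 1 UMI. The level was 6260.0 CPM in luminal cells (6168 to 6353) and 2439 CPM in basal cells (2355 to 2525), a log2 ratio of -1.36 (-1.42 to -1.31). In Fgfr2 KO the levels were 3734 and 1171 CPM, a log2 ratio of -1.67 (-1.83 to -1.51). It was -0.95, short of 2-fold, without the deepest 5% of cells. One of the 31 Fgfr2 KO luminal cells held 31.2% of their 2304 UMIs. Ptprc-positive Ctrl cells stood at 2208 CPM, close to the basal level.

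Tm4sf1 leaned to luminal cells by less than 2-fold. Its Ctrl level was 1138 CPM in luminal and 829 CPM in basal cells, a log2 ratio of -0.46 (-0.56 to -0.36). In Fgfr2 KO it was 820.0 and 448 CPM, a log2 ratio of -0.87 (-1.15 to -0.60). Thinned shares in Ctrl were 84.1% of luminal and 86.4% of basal cells, against 45.6% of Ptprc-positive cells.

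**Figure D1:**
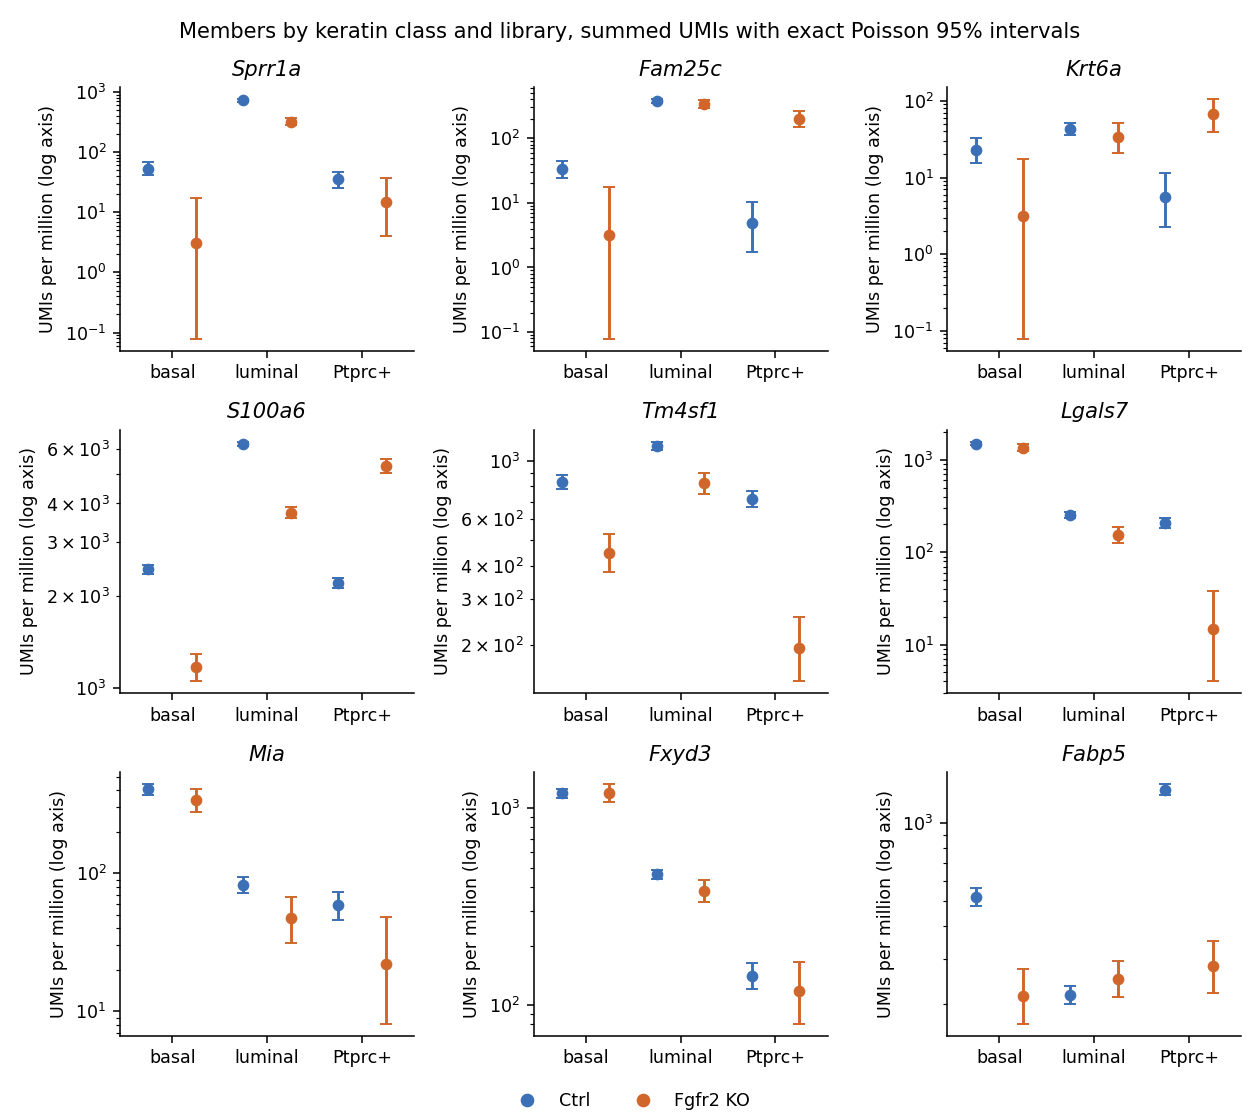
Level of each of the 9 genes in CPM (log axis) in basal, luminal and Ptprc-positive cells of the Ctrl library (blue) and the Fgfr2 KO library (orange), with exact Poisson 95% intervals as bars. Sprr1a and Fam25c sit lower in basal than in luminal cells (53.3 and 33.2 CPM against 725 and 378 CPM in Ctrl), while Lgals7, Mia and Fxyd3 sit highest in basal cells.

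Lgals7, Mia and Fxyd3 were the basal members in both libraries. Lgals7 stood at 1506 CPM in basal cells (1440.1 to 1575) and 256 CPM in luminal cells (238 to 276) of Ctrl, a log2 ratio of 2.56 (2.43 to 2.68). In Fgfr2 KO it stood at 1362 and 156 CPM, a log2 ratio of 3.13 (2.81 to 3.46). The thinned shares were 60 of 66 basal cells (90.9%), 51.3% of luminal cells and 16.2% of Ptprc-positive cells in Ctrl. In Fgfr2 KO they were 18 of 19 basal cells (94.7%), 40.7% of luminal cells and 0 of 17 Ptprc-positive cells. Galectin-7 transcript was thus seen in nearly all thinned basal cells and in part of the luminal cells.

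Mia had the next largest basal lead. Its level was 405 CPM in basal and 82.3 CPM in luminal cells of Ctrl, a log2 ratio of 2.30 (2.07 to 2.53). Fgfr2 KO cells had 341 and 47.0 CPM, a log2 ratio of 2.86 (2.26 to 3.50). Mia was seen, after thinning, in 81.8% of basal, 22.1% of luminal and 5.88% of Ptprc-positive Ctrl cells. Of the 3 basal members in Ctrl it had the lowest luminal and Ptprc-positive shares.

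Fxyd3 was shared more widely. It stood at 1191 CPM in basal and 464 CPM in luminal cells of Ctrl, a log2 ratio of 1.36 (1.25 to 1.47). The Fgfr2 KO levels were 1199 and 382 CPM (log2 1.65, 1.41 to 1.89). Thinned shares in Ctrl were 97.0% of basal, 66.4% of luminal and 20.6% of Ptprc-positive cells.

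Fabp5 leaned to basal cells in Ctrl and had no settled class direction in Fgfr2 KO. In Ctrl it stood at 519.6 CPM in basal cells (481 to 560.4) and 216 CPM in luminal cells (199.7 to 234), a log2 ratio of 1.26 (1.10 to 1.42). In Fgfr2 KO it stood at 216 CPM in basal and 251 CPM in luminal cells, a log2 ratio of -0.22 with an interval from -0.65 to 0.20. The difference between the libraries was not tested. Ptprc-positive Ctrl cells had 1349 CPM, more than either epithelial class, and 1 of 31 Fgfr2 KO luminal cells held 27.7% of the luminal UMIs there. In Fgfr2 KO, 88 of the 155 luminal UMIs lay in the 8 cells rich in immune and fibroblast transcripts. Without such cells the ratio was 1.60 in Ctrl and 0.73 in Fgfr2 KO (202 against 122 CPM), basal in both. Over all alternatives the Fgfr2 KO ratio ran from -0.63 to 0.73, and the Ctrl ratio from 0.83 (thinned) to 1.74.

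Across the 9 genes, 4 were at least 2-fold higher in basal cells of Ctrl (Lgals7, Mia, Fxyd3 and Fabp5) and 3 at least 2-fold lower (Sprr1a, Fam25c and S100a6). Of the 9838 genes with at least 20 UMIs over both classes, 5.07% were that much higher and 9.65% that much lower. In Fgfr2 KO, 3 were higher and 4 lower, Krt6a now among the lower ones, against 7.23% and 14.1% of 5174 genes. Nothing is read from these counts, since the genes were chosen on this contrast. The median log2 ratio of the 9 genes was -0.46 in Ctrl and -0.87 in Fgfr2 KO, against -0.12 and -0.16 over all tested genes. Nearest to 2-fold without reaching it were Krt6a in Ctrl (-0.88) and Tm4sf1 in Fgfr2 KO (-0.87), and the latter was at -1.09 without the top cell of each class.

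**Figure D2:**
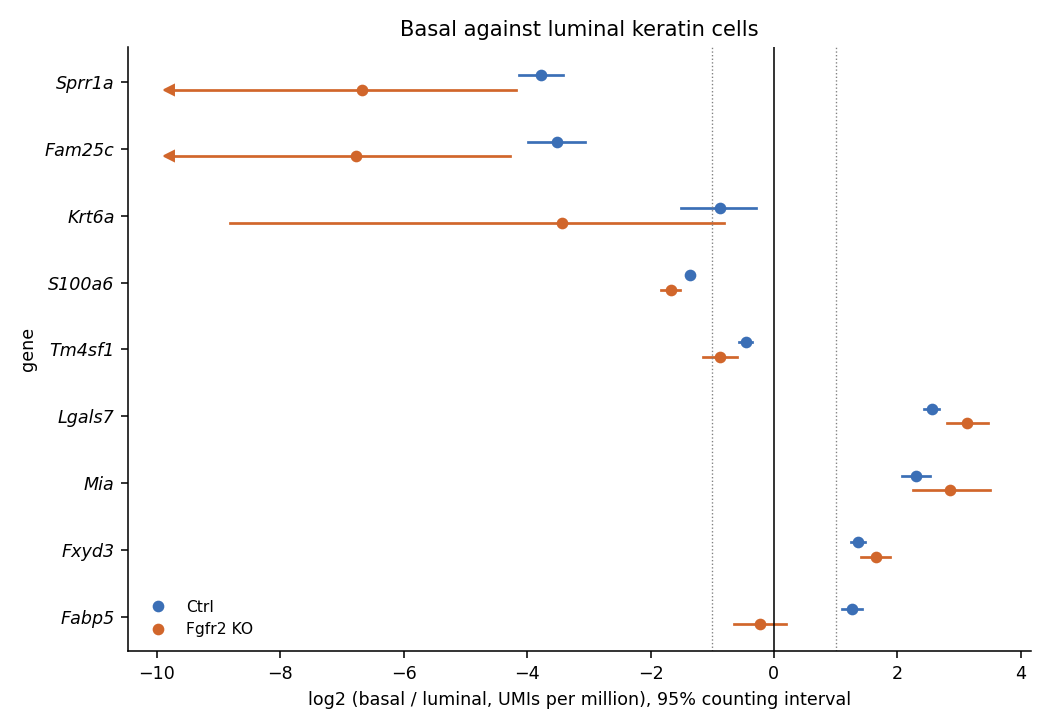
Log2 ratio of basal over luminal level for each of the 9 genes in Ctrl and Fgfr2 KO cells, with exact 95% intervals; dotted lines mark 2-fold, and an arrow marks an interval that runs beyond the axis. Lgals7, Mia and Fxyd3 lie right of the upper line in both libraries (2.56, 2.30 and 1.36 in Ctrl), Sprr1a and Fam25c lie furthest left, and Fabp5 is at 1.26 in Ctrl and -0.22 in Fgfr2 KO, where its sign depends on the setting (-0.63 to 0.73).

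The levels were then followed along the luminal share of keratin UMIs in Ctrl, in 5 bins of 36, 32, 32, 30 and 55 cells whose borders were set after the data had been seen. Sprr1a stood at 29.5, 74.4, 423, 222 and 1299.9 CPM from the most basal to the most luminal bin. Fam25c stood at 32.8, 33.5, 142, 50.5 and 776 CPM. Both were thus highest in cells in which at least 95% of keratin UMIs were luminal. In the third bin 1 cell held 207 of the 307 Sprr1a UMIs, and without it the level there was 142 CPM. In the second bin 1 cell held 34 of the 51. Without the top cell of each, the first and the second bin stood at 25.4 and 25.6 CPM. For Fam25c 1 cell held 13 of 20, 16 of 23 and 58 of 103 UMIs in the first 3 bins, which stood at 11.7, 10.6 and 63.9 CPM without it. S100a6 climbed from bin to bin, from 1754 through 3048, 4045 and 4519 to 8965 CPM. Krt6a was highest in the last bin, at 84.7 CPM, against 42.7 CPM in the first and 5.83 CPM in the second. The third and the fourth stood at 12.4 and 12.1 CPM. In the first bin 1 cell held 18 of the 26 UMIs. Without the top cell of each bin Krt6a stood at 13.4, 3.04, 4.26, 4.49 and 65.9 CPM.

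The basal members declined along the same axis. Mia stood at 387, 421, 180.4, 62.6 and 37.3 CPM, and Lgals7 at 1347, 1648, 536, 215 and 116 CPM. Lgals7 was highest in the second bin, where 20% to 50% of keratin UMIs were luminal. Mia was highest there only with its top cell, since without the top cell of each bin it stood at 379.6 CPM in the first and 365 CPM in the second. Fxyd3 stood at 1301, 1094, 664, 357 and 423 CPM, and Fabp5 at 617, 433, 293, 292 and 111 CPM. Tm4sf1 had its peak among cells of 80% to 95% luminal share, at 1462 CPM, against 839.9 CPM in the most basal and 843 CPM in the most luminal bin.

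**Figure D3:**
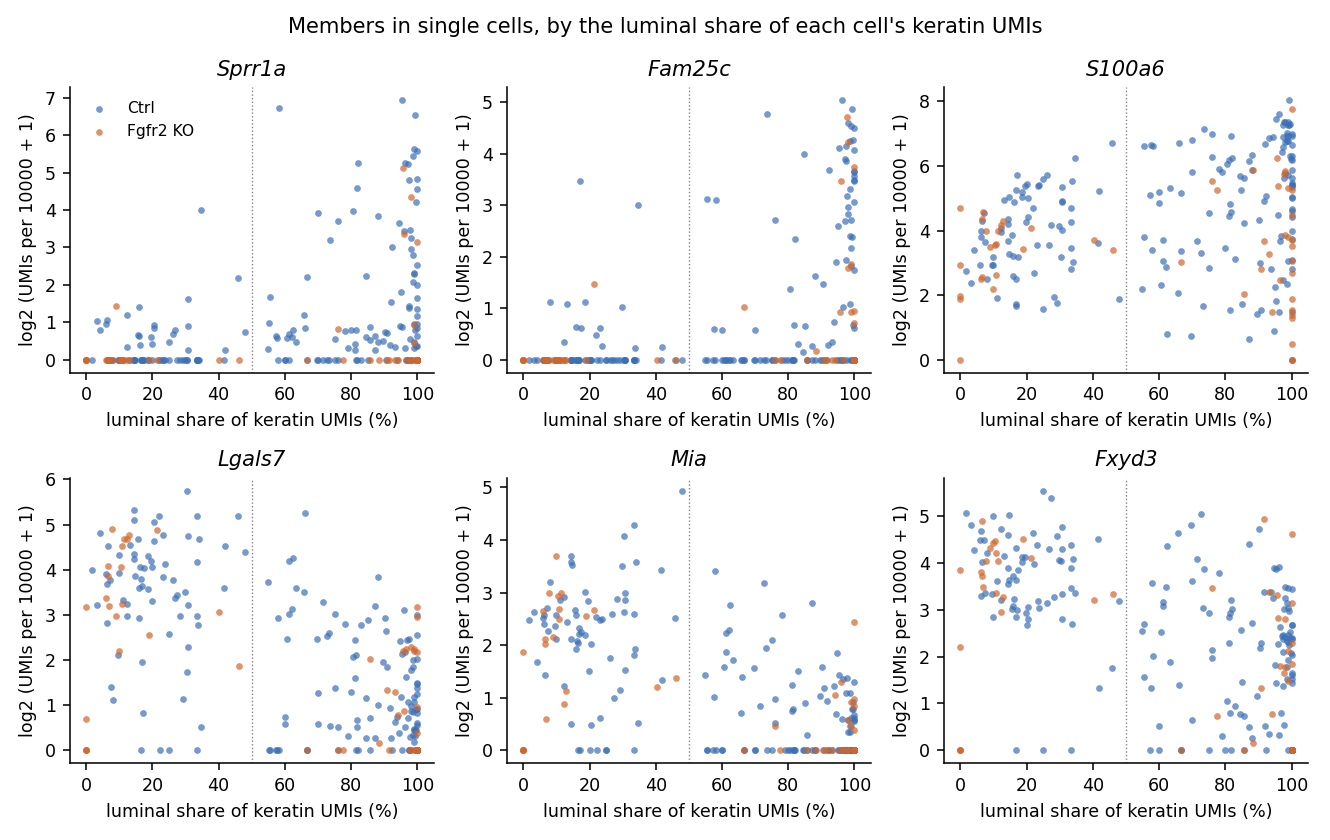
Level in single cells, as log2 of UMIs per 10000 plus 1, against the luminal share of keratin UMIs in percent for Sprr1a, Fam25c, S100a6, Lgals7, Mia and Fxyd3; each point is 1 cell of Ctrl or Fgfr2 KO and the dotted line marks 50%. Sprr1a and Fam25c are at or near 0 in most cells and higher at the luminal end, while S100a6 is above 0 in nearly all cells. Of the 55 Ctrl cells with a luminal share of at least 95%, 39 had a Sprr1a UMI and 35 a Fam25c UMI.

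Cells with at least 10 UMIs of each keratin set, here called both-set cells, numbered 68 in Ctrl and 11 in Fgfr2 KO. They were deeper than the other classed cells, with medians of 23573 against 15252 UMIs in Ctrl and 25498 against 12378 in Fgfr2 KO. These other cells are called one-set cells, though they include cells with UMIs of both sets short of that minimum. The class mix differed too, with 35 basal and 33 luminal both-set cells against 33 and 84 one-set cells in Ctrl. In Fgfr2 KO it was 7 and 4 against 15 and 27. The part of this mix in the ratios over both classes was not tested. Scrublet called 1 Ctrl and 2 Fgfr2 KO cells as doublets, and the part of doublets in both-set cells was not tested. Other cell types' markers moved with the same contrast. Fibroblast markers summed to 482 CPM in both-set and 3072 CPM in one-set cells of Ctrl and immune markers to 680.2 and 1691 CPM. In Fgfr2 KO the sums were 503 and 799 CPM for fibroblast and 273 and 2284 CPM for immune markers. Without the cells rich in these transcripts the Ctrl ratios given next were 1.32 for Lgals7, -2.22 for Fam25c, -1.42 for Sprr1a and -1.36 for Krt6a. Of the 9 genes in Ctrl, only Lgals7 was at least 2-fold higher in both-set cells, at 962 against 357 CPM (log2 1.43, 1.31 to 1.55). Tm4sf1 was at 0.81 (0.59 to 1.30 over the other settings) and Mia at 0.70 (-0.26 to 3.39). Fam25c was lower, at 103 against 426 CPM (log2 -2.04, -2.27 to -1.82), as was Sprr1a, at 308 against 707 CPM (log2 -1.20, -1.33 to -1.06). Krt6a was the other lower gene, with 45 UMIs against 105 (log2 -1.13, -1.67 to -0.62). Within the basal class alone, Lgals7 (0.53) and Fam25c (-0.79) were short of 2-fold. The count was 1 higher and 3 lower of 9, against 3.5% and 7.09% of all tested genes. The median of the 9 was 0.08 and that of all genes 0.02.

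The lower Krt6a value did not last in other settings: it was 0.055 after thinning and 3.60 within the basal class alone, where the one-set cells had 1 UMI. In the basal class 29 of 30 Krt6a UMIs were in both-set cells, and 1 cell held 62.1% of the 29. Sprr1a was less than 2-fold lower when each cell counted equally (-0.62), after thinning (-0.69), within the luminal class (-0.61) and without the deepest 5% of cells (-0.83). Fxyd3 was at 711 against 675 CPM (log2 0.08, interval -0.03 to 0.18). This value depended on the settings, from -0.74 within the basal class alone to 1.70 when 1 UMI of each keratin set was enough.

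Within each class, both-set and one-set cells differed in a gene-specific way. In Ctrl luminal cells, Tm4sf1 stood at 1688 CPM in both-set cells and 796 CPM in one-set cells, and Lgals7 at 374 against 183 CPM. Fam25c ran the other way, with 168 against 509 CPM, and Sprr1a with 546 against 837 CPM. S100a6 was lower in luminal both-set cells (5194 against 6923 CPM) and higher in basal ones (2726 against 1751 CPM). In Ctrl basal cells Lgals7 was again higher in both-set cells (1656 against 1148 CPM), while Fxyd3 was lower (994 against 1665 CPM). Tm4sf1 was thus above one-set cells in both classes of Ctrl, the basal values being 920.3 against 611 CPM.

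The 11 Fgfr2 KO both-set cells gave less precise values. Tm4sf1 was at 1165 against 419 CPM in one-set cells (log2 1.48, 1.24 to 1.71), the 1 member past 2-fold there. The ratio was 0.75 within the basal class alone, short of 2-fold, and 2.98 when 1 UMI of each keratin set was enough. A share of 7.5% of all tested genes was that much higher and 9.47% that much lower, and 0 members were lower by 2-fold. Sprr1a and Fam25c were each at -0.95 with intervals below 0, and 1 cell held 95.7% of the 46 Sprr1a UMIs of both-set cells and 1 cell 98.0% of the 49 Fam25c UMIs. Without the top cell of each group they were at -4.32 and -5.77. With 1 UMI of each keratin set they turned to 0.95 and 0.15, and with 5 UMIs Sprr1a was at 2.40 and Fam25c at -0.45, so neither direction held across the settings. The median of the 9 genes was -0.05 and that of all genes 0.06.

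The 9 genes fell into groups that varied together from cell to cell. Spearman correlations are given over 185 Ctrl and 53 Fgfr2 KO cells as a description, without a p, because the cells share a library and differ in depth. Lgals7 and Mia had the highest value, 0.76 in Ctrl and 0.82 in Fgfr2 KO, followed by Mia and Fxyd3 at 0.68 and 0.78. After thinning the values were 0.58 and 0.54 in Ctrl and 0.65 and 0.66 in Fgfr2 KO. Sprr1a and Fam25c were at 0.48 (0.56 thinned) in Ctrl and 0.53 (0.35 thinned) in Fgfr2 KO. Fam25c and S100a6 were at 0.58 (0.53 thinned) and 0.51 (0.34 thinned). Krt6a went with Fam25c, at 0.44 (0.47 thinned) in Ctrl and 0.70 (0.47 thinned) in Fgfr2 KO. Fam25c and Fabp5 ran opposite in Ctrl, at -0.51 (-0.42 thinned), and were at -0.16 (-0.20 thinned) in Fgfr2 KO.

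The luminal trio kept its correlations within the luminal class alone. Over the 117 Ctrl luminal cells, Fam25c and S100a6 were at 0.65, Sprr1a and Fam25c at 0.60, and Sprr1a and S100a6 at 0.58. Of the 113 thinned luminal cells, 45 had Sprr1a, 41 had Fam25c and 30 had both, that is, 30 of 45 and 30 of 41. Krt6a was seen in 18, of which 14 also had Sprr1a. Lgals7 was seen in 16 of the 45 cells with Sprr1a, and in luminal cells Lgals7 ran against S100a6 at -0.45. Lgals7 and Mia remained at 0.63 within luminal cells, whereas in the 68 basal cells only Mia and Fxyd3, at 0.41, passed 0.4 in size.

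**Figure D4:**
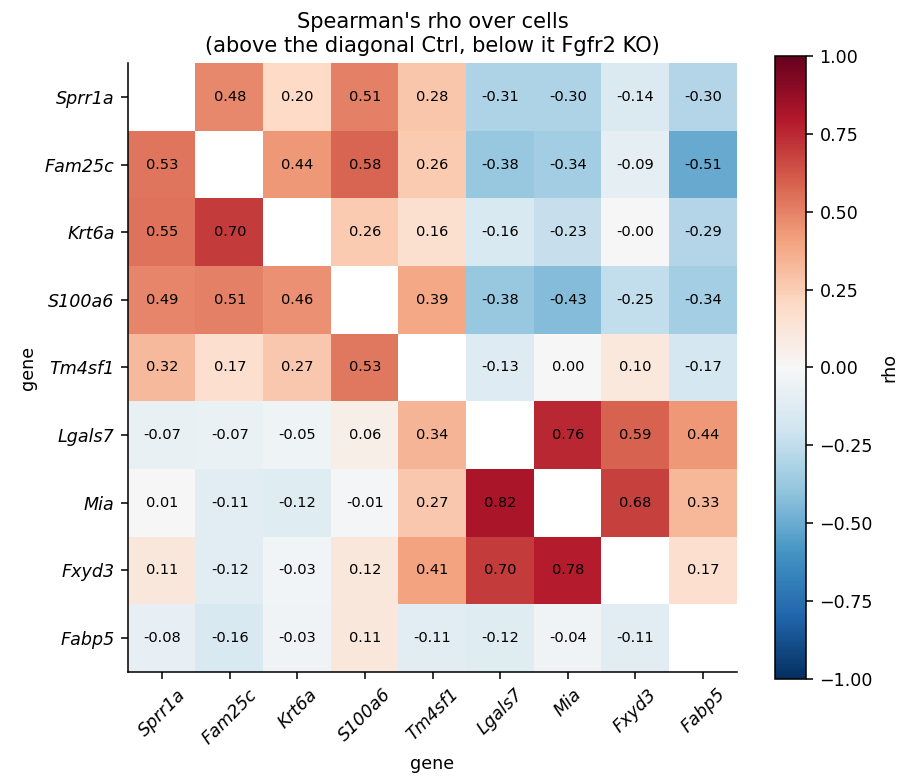
Spearman correlation of each pair of the 9 genes over cells, Ctrl (185 cells) above the diagonal and Fgfr2 KO (53 cells) below it; colour runs from negative (blue) to positive (red). Lgals7, Mia and Fxyd3 form one block (0.59 to 0.76 in Ctrl) and Sprr1a, Fam25c and S100a6 another (0.48 to 0.58 in Ctrl).

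Other genes whose levels went with the members were found by the same correlation over Ctrl cells. The mean of the 9 genes was most like Sfn, the epithelial 14-3-3 protein stratifin, at 0.61, then Spint2 (0.56), Bhlhe41 (0.56) and Epcam, the epithelial adhesion molecule (0.54), among 9295 genes. Wnt5a, Wnt4 and Slco2a1 (0.53 each) and Il18r1 and Lsr (0.49 each) were also among the 10 highest. Thinned, Sfn was at 0.49, Epcam at 0.50, Spint2 and Wnt5a at 0.46, Slco2a1 and Wnt4 at 0.45, Bhlhe41 and Il18r1 at 0.39 and Lsr at 0.29. Fam25c was most like Tspan1 (0.74), Foxa1, a transcription factor of hormone-sensing luminal cells (0.73), and Cmtm8 (0.68). Thinned, these were 0.60, 0.45 and 0.54. Foxa1 was also among the 3 genes most like Sprr1a (0.53), after R3hdml (0.56) and Wnt7b (0.54).

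S100a6 was most like Anxa2 (0.74), a membrane-binding annexin, S100a11 (0.72) and Tspo (0.72). Lgals7 went with Mia, Krt5 (0.69) and the collagen gene Col9a3 (0.62). Col9a3 was also next to Mia (0.72) and Fxyd3 (0.64). The genes nearest to Tm4sf1 (1810011O10Rik at 0.51, Lmna and Il18r1 at 0.48), Krt6a (after Fam25c, Prkar2b at 0.43 and Smim22 at 0.41) and Fabp5 (Lgals7 at 0.44, Ldhb at 0.42, Cst3 at 0.41) were less close. Thinned, Ldhb was at 0.17, Cst3 at 0.30 and Lgals7 at 0.36 with Fabp5, and over Fgfr2 KO cells at 0.019, 0.15 and -0.12. Depth moved with some members: the correlation with UMIs per cell was 0.31 for S100a6 and 0.29 for Tm4sf1 in Ctrl, and 0.58 for Tm4sf1 and 0.53 for Krt6a in Fgfr2 KO.

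Between the libraries, the basal cells differed most in Sprr1a, Fam25c, Krt6a, Fabp5, S100a6 and Tm4sf1, all lower in Fgfr2 KO. Cells over 25% mitochondrial UMIs, a sign of RNA quality, were 6 of 63 Ptprc-negative cells in Fgfr2 KO and 3 of 195 in Ctrl, of which 0 of 22 and 1 of 68 were basal and 3 of 31 and 1 of 117 luminal. Leaving them out took away only 1 basal cell, so it could hardly move the basal ratios. Those of Fabp5, S100a6 and Tm4sf1 were then -1.27, -1.06 and -0.89. Fabp5 stood at 216 CPM in 22 Fgfr2 KO basal cells (168 to 273) against 519.6 CPM in 68 Ctrl basal cells, a log2 ratio of -1.27 (-1.65 to -0.91). S100a6 stood at 1171 against 2439 CPM (log2 -1.06, -1.22 to -0.90), and Tm4sf1 at 448 against 829 CPM (log2 -0.89, -1.15 to -0.64). The S100a6 ratio lay between -1.07 and -0.67 over the alternatives, so its 2-fold call rested on the settings. For Fabp5 the range was -1.82 to -0.69, the weakest value being that of thinned cells.

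Sprr1a, Fam25c and Krt6a each had 1 UMI in Fgfr2 KO basal cells, against 69, 43 and 30 in Ctrl. The log2 ratios were -4.09 (-9.41 to -1.56) for Sprr1a, -3.41 (-8.74 to -0.85) for Fam25c and -2.89 (-8.24 to -0.30) for Krt6a. Since 1 Ctrl cell held 49.3% of the Sprr1a UMIs, 37.2% of the Fam25c UMIs and 60% of the Krt6a UMIs, these ratios rest on few cells. The thinned share of Sprr1a was 1 of 19 Fgfr2 KO basal cells (5.26%, exact interval 0.133% to 26.0%) and 8 of 66 Ctrl basal cells (5.38% to 22.5%). These intervals cover counting error within 1 library per group, and with 19 cells nothing is read from the shares.

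The basal members Lgals7, Mia and Fxyd3 had like levels in the basal cells of both libraries. Fxyd3 stood at 1199 CPM in Fgfr2 KO and 1191 CPM in Ctrl (log2 0.01, -0.16 to 0.17). Lgals7 was at -0.15 (-0.30 to 0.01) and Mia at -0.25 (-0.56 to 0.05). These intervals cover counting error alone and leave out any difference between transplants. In all, 0 members were at least 2-fold higher and 5 at least 2-fold lower in basal cells of Fgfr2 KO, against 4.36% and 11.2% of 6863 genes. The median was -1.06 for the 9 genes and -0.12 for all tested genes.

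The libraries were compared in luminal cells in the same way. The class rests on keratin UMIs and not on the donor, so it may hold cells from either donor population, and cells were not traced to their donors here. Sprr1a was the 1 member past 2-fold, at 321 against 725 CPM (log2 -1.18, -1.39 to -0.97), with a range of -1.67 to -1.07 over the alternatives. It was seen in 4 of 27 thinned Fgfr2 KO luminal cells (14.8%, 4.19% to 33.7%) and 45 of 113 of Ctrl (30.7% to 49.5%). S100a6 stood at 3734 against 6260.0 CPM (log2 -0.75, -0.81 to -0.68). Its ratio was -1.14 without the top cell of each library and -1.46 without the deepest 5% of cells, which would put it past 2-fold, and -0.31 without the Ptprc filter.

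Mia was at -0.81 (-1.42 to -0.25), Lgals7 at -0.72 (-1.04 to -0.41), Tm4sf1 at -0.47 (-0.61 to -0.34) and Fxyd3 at -0.28 (-0.48 to -0.08). When a class needed 80% of the keratin UMIs, Lgals7 and Mia turned to 0.13 and 0.073. Fam25c was at -0.14 (-0.37 to 0.07), Krt6a at -0.32 (-1.07 to 0.35) and Fabp5 at 0.21 (-0.05 to 0.47), with intervals that include 0. Without the cells rich in immune and fibroblast transcripts Fabp5 was at -0.56. Sprr1a and Fam25c, alike in their luminal lead, thus had unlike ratios between the libraries, -1.18 and -0.14. That 0 genes were higher and 1 lower by 2-fold compares with 4.06% and 8.58% of 9459 genes, and the median was -0.47 against -0.06.

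Both-set cells gave the smallest set, 11 against 68 cells. Sprr1a was again lowest, at 134 against 308 CPM (log2 -1.21, -1.67 to -0.77), but 1 Fgfr2 KO cell held 95.7% of its UMIs there. The ratio was 0.044 when 5 UMIs of each keratin set were enough and -5.45 without the deepest 5% of cells. Fabp5 was at -0.96 (-1.34 to -0.60) and Fam25c at 0.46 (-0.02 to 0.92), the latter carried by 1 cell with 98.0% of its 49 UMIs. Without the top cell of each library Fam25c was at -4.43 and Sprr1a at -4.94. S100a6 was at -0.34, Lgals7 at -0.36, Mia at -0.42, Tm4sf1 at -0.20 and Fxyd3 at -0.13. Krt6a was at -0.64 (-2.33 to 0.69), with 5 UMIs in Fgfr2 KO. The 80% rule turned Lgals7 to 0.55 and Mia to 0.58, and Lgals7 was also at 0.41 without the deepest 5% of cells and at 0.031 thinned. The count was 0 higher and 1 lower, against 4.16% and 10.4% of 8152 genes, and the median was -0.36 against -0.07.

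**Figure D5:**
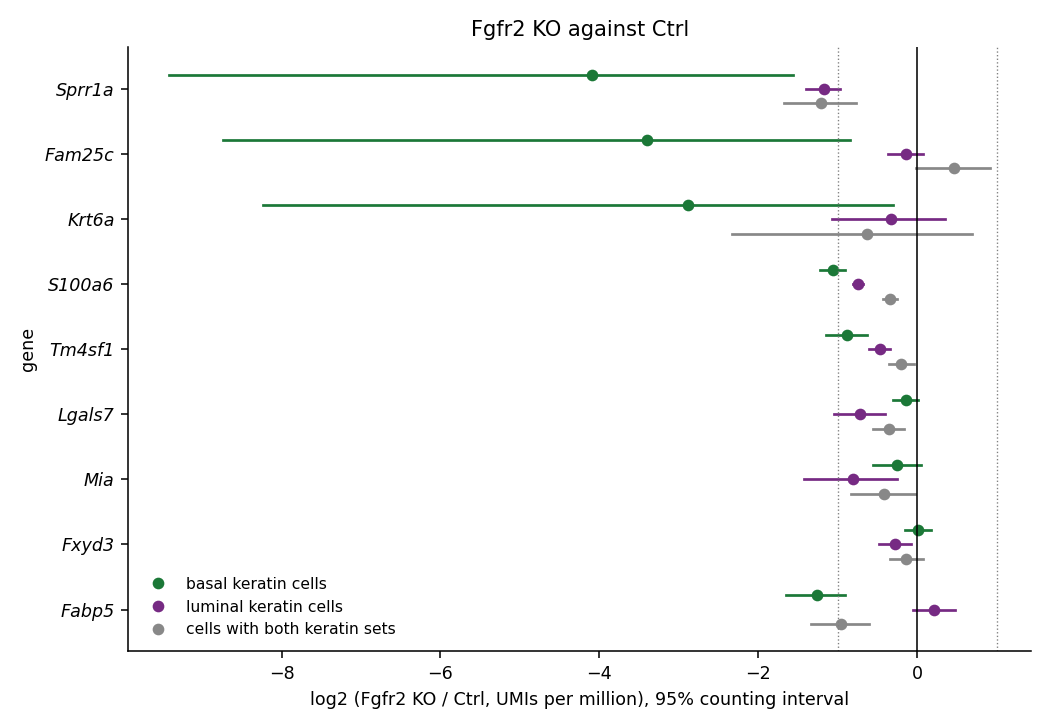
Log2 ratio of Fgfr2 KO over Ctrl level for each of the 9 genes in basal, luminal and both-set cells, with exact 95% intervals. Fabp5, S100a6 and Tm4sf1 lie below 0 in basal cells (-1.27, -1.06 and -0.89), Fxyd3 lies at 0.01 there, and the intervals of Sprr1a, Fam25c and Krt6a in basal cells are wide because Fgfr2 KO had 1 UMI of each.

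Genes of keratinocyte and wound programmes were described from lists drawn up around the 9 genes, and a list may hold members. Beside each count stands the share of all tested genes at least 2-fold higher and lower in the same comparison, called background. Of the cornified envelope and late keratinocyte genes, 11 had enough UMIs in Ctrl, and 1 was at least 2-fold higher and 5 lower in basal than in luminal cells (background 5.07% and 9.65%). The member Sprr1a (-3.77) was among these 5. Sfn stood at 1033 CPM in basal and 769.8 CPM in luminal cells (log2 0.42). Ly6d, a surface protein of keratinocytes and luminal progenitors, was luminal, at 158 against 329 CPM in Ctrl (log2 -1.06) and 93.9 against 673 CPM in Fgfr2 KO (log2 -2.84). Unlike Sprr1a, it was higher in Fgfr2 KO than in Ctrl luminal cells (log2 1.03, 0.86 to 1.20). Between the libraries, 1 of 10 genes of this list was higher and 3 lower by 2-fold in luminal cells, and 0 of 6 higher and 1 lower in basal cells (background 4.06% and 8.58%, and 4.36% and 11.2%). Sprr1a was among the 3 (log2 -1.18) and was itself the 1 lower gene in basal cells (-4.09). Nothing is read from these counts, since Sprr1a was chosen on the same contrasts.

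The wound keratins were not alike in class. Krt17, a partner of Krt6a in skin, was basal, at 1874 against 277 CPM in Ctrl (log2 2.76, 2.64 to 2.88), while Krt6a leaned to luminal cells. Krt16 was at 36.3 against 34.4 CPM (log2 0.08, -0.46 to 0.59). In Fgfr2 KO against Ctrl, Krt17 was at -0.82 in basal and 0.23 (-0.0057 to 0.45) in luminal cells. Krt16 was at -0.95 (-2.47 to 0.28) in basal and -1.82 (-3.31 to -0.65) in luminal cells.

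Of 41 wound-edge genes, 33 had enough UMIs for the class comparison in Ctrl, with 5 at least 2-fold higher and 9 lower in basal cells, beside 5.07% and 9.65% of all genes. Slpi, a secreted protease inhibitor, was basal, at 2416 against 878 CPM (log2 1.46). Anxa1 (log2 -0.96) and Fn1, fibronectin (-0.97), leaned to luminal cells, and Areg, the amphiregulin ligand of the EGF receptor, was at 11.6 against 602 CPM (-5.70). Between the libraries 0 of 24 were higher and 10 lower by 2-fold in basal cells, and 1 of 31 higher and 11 lower in luminal cells. All genes gave 4.36% and 11.2% in basal and 4.06% and 8.58% in luminal cells. Fn1 was at -1.51 and -1.10 in the respective classes, and Anxa1 at -1.05 and -0.99. Slpi was at 0.38 in basal and -1.22 in luminal cells. The fibroblast markers other than Postn were also lower in Fgfr2 KO, as given above. In basal cells Col3a1 had 1 UMI against 523 in Ctrl, Col1a1 4 against 391, Col1a2 5 against 348 and Dcn 2 against 166. Their part in Fn1 was not tested.

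Adhesion genes and transcription factors of stratified epithelia gave mixed values. Of 10 desmosome and epidermal adhesion genes with enough UMIs, 2 were at least 2-fold higher and 2 lower in Ctrl basal cells (background 5.07% and 9.65%). Perp, a desmosome membrane protein, was at 443 against 146 CPM (log2 1.60), and Col17a1, a hemidesmosome collagen named after its values were seen, at 102 against 8.87 CPM (log2 3.52). Dsp, desmoplakin, was just short of 2-fold, with 182 against 198 UMIs (log2 0.9996), and Jup, plakoglobin, was at 199 against 179.6 CPM (0.15). Between the libraries 0 of 8 passed 2-fold in basal cells and 1 of 10 was lower in luminal cells (lower over all genes, 11.2% and 8.58%). Of 10 squamous-lineage transcription factors, 3 were higher and 1 lower in Ctrl basal cells (background 5.07% and 9.65%). Klf4 (-0.15, -0.32 to 0.03) and Sox9 (-0.57) were below 2-fold, as was Klf5 (0.75). Between the libraries 0 of 6 factors were higher and 2 lower in basal cells, and 1 of 8 higher and 0 lower in luminal cells, beside 4.36% and 11.2%, and 4.06% and 8.58%, of all genes.

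Within their own families the members stood apart in places. Of 9 S100 genes with enough UMIs, 0 were at least 2-fold higher and 2 lower in Ctrl basal cells, S100a6 being one (background 5.07% and 9.65%). S100a11 was at -0.33, S100a10 at -0.10 and S100a16 at 0.39, each short of 2-fold. In Fgfr2 KO basal cells S100a16 was at -1.23 against Ctrl and S100a10 at -0.83, beside -1.06 for S100a6 and -0.23 for S100a11. Of 6 galectins, Lgals7 was the 1 higher and Lgals3 the 1 lower gene in Ctrl basal cells (same background), Lgals3 at 250.1 against 946 CPM (log2 -1.92). Lgals1 was at -0.37 and Lgals9 at 0.91. Between the libraries Lgals3 was at -2.23 in basal cells, where Lgals7 was at -0.15. The other family members of Fxyd3, Mia, Tm4sf1 and Fabp5 gave 5, 1, 0 and 1 genes with enough UMIs in Ctrl.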

How the data were processed

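The authors deposited raw UMI counts per gene and cell in 1 table for both libraries, made with Cell Ranger and genome mm10. The submitters' processing notes give version 2.1.1, and the annotation version is not given in the sources used here. All cells of the deposited table were kept, without a doublet filter; cells with a Ptprc UMI were set aside. UMIs were summed per group of cells and divided by all UMIs of that group (CPM). Intervals are exact at 95% (Poisson for levels, conditional binomial for ratios, Clopper-Pearson for shares) and cover counting error only, so no p-value is given. Genes needed 20 UMIs over both groups, and a call means 2-fold. Shares were also taken after thinning cells to 5000 UMIs. The 9 members and all gene lists were chosen with earlier results of these data known. Named genes were the members, up to 4 genes per list with the most UMIs, genes that define terminal keratinocytes, and the 10 (for the mean) or 3 (per member) most correlated genes; some of these are not reported here. Promoter windows came from RefSeq (GRCm38.p6), gene positions from GENCODE M21. The code, checked on simulated data, used Python 3.11.15, numpy 2.4.6, pandas 2.3.3, scipy 1.17.1, scanpy 1.11.5 (Scrublet) and matplotlib 3.10.9.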

Additional observations from a re-analysis of the deposited data

Results flagged for a closer look

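S100a6 ran in opposite directions in the 2 libraries when both-set cells were set against one-set cells. The log2 ratio was -0.56 in Ctrl and 0.27 in Fgfr2 KO, and each interval excluded 0. The difference between the libraries was not tested. Within the Ctrl basal class the ratio was 0.64, and in Fgfr2 KO it was -0.16 without the Ptprc filter and -0.62 when 1 UMI of each keratin set was enough. In Fgfr2 KO, 1 cell held 43.8% of the S100a6 UMIs of both-set cells and 1 cell held 45.8% of those of one-set cells.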

How the results depend on the processing

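Each comparison was recomputed with other rules for class, cells and scaling. Over the 7 medians of the 9 genes, 53 values stayed near the reported one, 27 moved beyond the margin and 0 turned a called direction. The margin is the counting interval of the gene that sits at the median. For both-set over one-set cells that interval includes 0 in both libraries, so no turn could be counted there. Those medians, 0.08 in Ctrl and -0.05 in Fgfr2 KO, changed sign in some settings given below. Requiring 80% of keratin UMIs for a class gave -0.27 (basal over luminal, Ctrl), -0.47 (the same, Fgfr2 KO), 0.32 (both-set over one-set, Fgfr2 KO), -0.89 (Fgfr2 KO over Ctrl, basal) and -0.27 (luminal). Without the Ptprc filter they were -0.60 (basal over luminal, Fgfr2 KO), -0.22 (both-set, Ctrl) and -0.67 (Fgfr2 KO over Ctrl, luminal). Thinning gave -0.33 (basal over luminal, Ctrl), 0.24 (both-set, Fgfr2 KO), -0.69 (Fgfr2 KO over Ctrl, basal) and -0.69 (luminal). With cells counted equally the values were -0.35 (basal over luminal, Ctrl), 0.29 (both-set, Fgfr2 KO) and -0.88 (Fgfr2 KO over Ctrl, luminal). Without the deepest 5% of cells they were 0.27 (both-set, Fgfr2 KO), -0.33 (Fgfr2 KO over Ctrl, luminal) and -0.99 (both-set cells of Fgfr2 KO over Ctrl). A minimum of 5 UMIs per keratin set gave 0.43 (Ctrl) and 0.80 (Fgfr2 KO) for both-set cells and -0.10 between the libraries, and 1 UMI gave 0.99 (Fgfr2 KO). Single shifts were -0.58 without cells rich in immune and fibroblast transcripts (basal over luminal, Ctrl), -0.074 with at least 10 keratin UMIs (both-set, Ctrl), -0.43 in the luminal class alone (both-set, Fgfr2 KO, an alternative chosen after seeing the data), -0.65 without Scrublet calls (Fgfr2 KO over Ctrl, luminal) and -0.70 without top cells (both-set, between libraries). The cause was not tested for any of these.

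For single genes, 451 values moved by less than their counting interval, 231 moved more, and 21 turned a direction whose interval had excluded 0. For both-set over one-set cells in Ctrl these were Fabp5 (-0.83 without the Ptprc filter, -0.0033 with 1 UMI), Krt6a (0.017 with cells counted equally, 0.055 thinned, 3.60 in the basal class), S100a6 (0.054 with 1 UMI, 0.64 in the basal class) and Mia (-0.26 in the basal class). In Fgfr2 KO they were S100a6 (-0.16 without the Ptprc filter, -0.62 with 1 UMI), Sprr1a (0.95 with 1 UMI, 2.40 with 5), Fam25c (0.15 with 1 UMI) and Lgals7 (-3.00 in the luminal class). Between the libraries, the 80% rule turned Lgals7 (0.13) and Mia (0.073) in luminal cells and Lgals7 (0.55) and Mia (0.58) in both-set cells, where Lgals7 also turned without the deepest cells (0.41) and thinned (0.031) and Sprr1a with 5 UMIs (0.044). No paired analysis was possible because each group has 1 library. Depth limits Krt6a, Fam25c and Sprr1a in Fgfr2 KO basal cells, where 1 UMI was seen of each among 319446.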

Other observations

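Among cells outside the keratin classes, the 23 Ptprc-positive Fgfr2 KO cells held 54 Fam25c and 18 Krt6a UMIs, and all of them lay in 1 cell. The same cell held 85.0% of the 1437 S100a6 UMIs of that group. Ptprc-positive Ctrl cells had Tm4sf1 at 716 CPM, with 35.9% of the UMIs in 1 cell, and Lgals7 at 209 CPM, with 64.0% in 1 cell.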
